A study of Zea mays subsp. mexicana with 6 samples.

Results

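The comparison described here is that of teosinte seedlings under polyethylene glycol (PEG) drought for 3 h with untreated control seedlings. The plants were Zea mays subsp. mexicana of the cultivar 8493, a wild relative of maize, taken as seedlings 13 days after germination. Both control libraries came from seedlings kept without stress in soil at 25°C with 10 h of light and 14 h of dark. Both drought libraries came from seedlings placed for 3 h, under the same light, in Hoagland solution with 20% PEG2000, an osmotic agent that lowers the water potential around the roots. Whether control seedlings were also moved into solution is not described, so any effect of such a transfer cannot be told apart from that of PEG, and no temperature was given for the drought treatment. Roots, stems and leaves of at least 3 seedlings were pooled in every sample, so fewer cells of a type and less RNA per cell cannot be told apart in any result below. The third group, seedlings held at 4°C for 12 h, also with 2 libraries, differed from the drought group in duration and is given for reference only.

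Expression was given as FPKM (fragments mapped to a transcript, scaled by its length and by the library's total) for 184280 unigenes, the gene-level clusters of a de novo assembly. Of these, 38552 were compared, namely those whose FPKM, averaged over the control and drought libraries, was no lower than 1. At the edge of this filter, 31 unigenes had a mean of exactly 1, such as c10559_g1 with 0 in both controls and 2.44 and 1.56 under drought. Just outside, 49 unigenes had a mean of 0.9975, such as c105835_g1 with 1.04 and 0.45 in the controls and 1.4 and 1.1 under drought. Fold changes are differences of group means of log2(FPKM + 1), which understate the change of weakly expressed genes. Each adjusted p is from limma, with Benjamini-Hochberg adjustment over all tested unigenes. Genes are said to have risen or fallen where the adjusted p was under 0.05, and are called DEGs (differentially expressed genes) where the adjusted p was also under 0.005 and the log2 fold change was at least 2 in either direction. With 2 libraries a group, an exact permutation test of a single gene cannot give a two-sided p below 0.333.

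When water becomes short, plants make the hormone abscisic acid (ABA) from carotenoids. ABA binds receptors that hold back clade A protein phosphatases 2C (PP2Cs), which frees SnRK2 kinases to activate bZIP transcription factors, close stomata and switch on protective genes. Among the products of such genes are dehydrins and other late embryogenesis abundant (LEA) proteins, which protect proteins and membranes in drying cells, and enzymes that make soluble sugars of the raffinose family.

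Some of the unigenes described below are those for which the study designed primer pairs for quantitative PCR. The pairs are shown for 3 unigenes that rose and 1 that fell, because they are the only stretches of these transcripts in the sources used here and tie the unigene names to a sequence. All are written 5′ to 3′ in lower case, and no base is marked.
PP2C 37 (c58084_g2), forward: ggacaaggagcgactctaagc
PP2C 37 (c58084_g2), reverse: cagagacacaggtagccacg
PP2C 3-like (c52482_g3), forward: tcacgaacggcttcaggtag
PP2C 3-like (c52482_g3), reverse: tgcctgcgtcgttctaatca
ATHB-6 homolog (c60754_g2), forward: acgtgtggtggattcatggt
ATHB-6 homolog (c60754_g2), reverse: tctgtttcccgtcgatccct
EL5-like ubiquitin ligase (c57309_g1), forward: agaacaagaattgcccacgc
EL5-like ubiquitin ligase (c57309_g1), reverse: acctgccaaggatttagacgg

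Summed FPKM per library lay between 967046 and 993409 in the series. FPKM is scaled by each library's total, so these sums are no measure of how alike the libraries were. Between 42849 and 47327 unigenes reached an FPKM of 1 in the control and drought libraries. Across unigenes, Pearson's r of log2(FPKM + 1) was 0.95 between the control libraries and 0.942 between the drought libraries, against 0.89 to 0.908 between a control and a drought library. Unigenes are not independent replicates, and these r values are descriptions. The study lists the reads of each library, which were not used here, and read counts per gene were not analysed.

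After 3 h in PEG, many more transcripts had risen strongly than had fallen. In all, 311 unigenes were DEGs (0.807% of those tested), of which 288 were higher (0.747%) and 23 lower (0.0597%) under drought. At an adjusted p under 0.05 alone, 3439 unigenes were called (8.92%), 2276 higher (5.9%) and 1163 lower (3.02%), and the median log2 fold change over every unigene tested was 0.01. The control and drought libraries did not overlap in any of the 311 DEGs, as was so for 52.7% of all tested unigenes. The DEGs that were higher had a median FPKM of 4.33 in control and 53.2 under drought. Their control mean was below an FPKM of 1 in 69 of 288, and 13 were listed at 0 in both control libraries. Together the 288 made up 0.377% and 0.361% of all FPKM in control and 3.71% and 3.34% under drought. The 23 that were lower had a median of 39.1 in control and 5.93 under drought, and 4 of them were listed at 0 in both drought libraries.

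**Figure D1:**
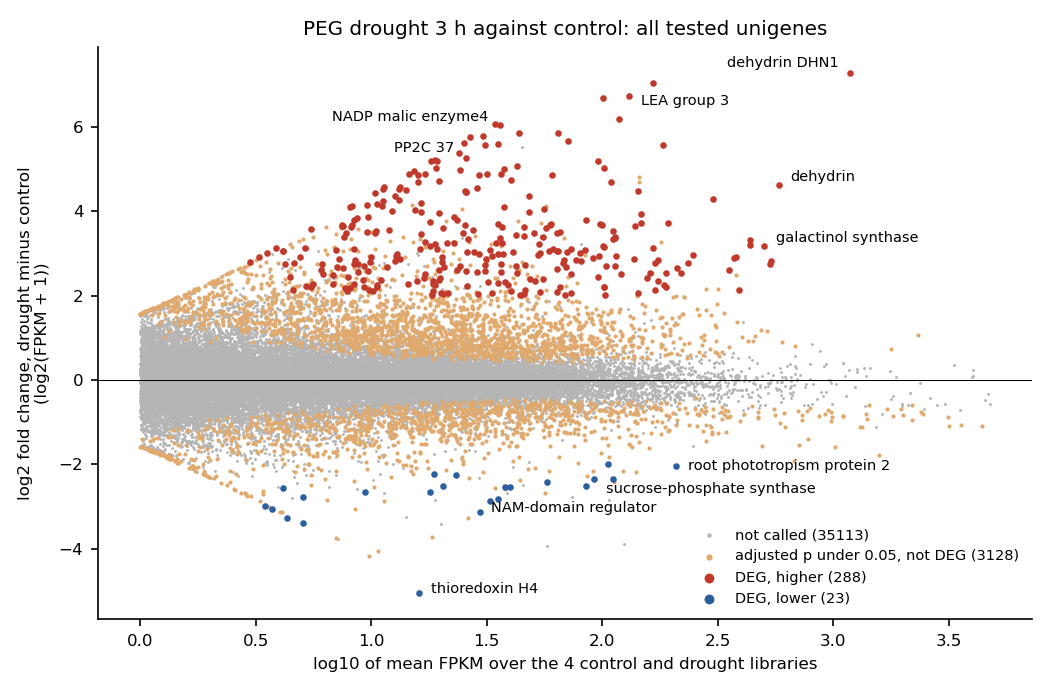
Each point is 1 of the 38552 tested unigenes, with the log10 of its mean FPKM over the 4 control and drought libraries on the x axis and the log2 fold change (drought minus control, on the log2(FPKM + 1) scale) on the y axis. The 288 DEGs that were higher (red) reach a log2 fold change of 7.27 at dehydrin DHN1, and the 23 that were lower (blue) reach -5.05 at thioredoxin H4.

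These counts rest on both libraries of each group. With any 1 of the 4 libraries left out, no unigene passed the DEG threshold, and between 6841 and 8271 had an unadjusted p under 0.05, against 8942 with all libraries. In these fits an arm of 1 library is assumed to vary like the other groups. Each of the 311 DEGs kept its direction in each of the 4 fits, but this was fixed in advance. Their control and drought libraries did not overlap, so leaving out 1 library cannot reverse a difference of group means. Below, a call is said to hold without any 1 library where the adjusted p stayed under 0.05 in all 4 of these fits, as it did for 66 of the 158 called unigenes named in the analysis.

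The steepest rises included those of dehydrins and LEA proteins. The unigene matching maize dehydrin DHN1, also known as rab17, a protein of ripening embryos and of ABA-treated leaves (c43682_g1, 80% identity), had FPKM values of 11.4 and 17.6 in the controls and 2588 and 2134 under drought. Its mean rose 163-fold (log2 fold change 7.27, SE 0.29, adjusted p = 0.000373), the largest log2 increase and the largest gain in FPKM among the DEGs. A second dehydrin (c57549_g1), whose best maize match carries the synonym dhn2, went from 46.5 and 41.4 to 1330.2 and 918 (4.62, SE 0.28, adjusted p = 0.0011). In both, the drought libraries were far above the controls. DHN1 stood at 28.2 and 17.2 in the cold libraries and the second dehydrin at 262 and 160.1.

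A pair of group 3 LEA unigenes of 1 assembly component, which may share reads, were close to absent in control seedlings. The first (c52001_g1) had FPKM values of 1.0 and 1.98 in control and 308 and 212 under drought (6.72, SE 0.35, adjusted p = 0.000684), and the second (c52001_g2) had 0.53 and 0.52 against 92.5 and 81.3 (5.85, SE 0.18, adjusted p = 0.000286). These 4 were the members that rose of the 8 in the dehydrin and LEA list, all of which were tested, and no member fell. All 4 calls held without any 1 library. The median log2 fold change of the list was 2.87, against 0.01 for all tested unigenes, of which 5.9% rose. The 4 that did not pass were 3 unigenes matching the embryo protein EMB564, with low and scattered values, and low temperature-induced protein15 (c54255_g2), at 166 and 128 in control and 111 and 129 under drought (adjusted p = 0.371). The latter was at 751 and 681 in the cold libraries. The matches of the 4 that rose were between 65.56% and 87.27% identical to the maize protein, so with a minimum identity of 90% the list kept 3 members and none of them rose. Their names as dehydrin or LEA therefore rest on the looser matches.

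In ABA synthesis, 3 unigenes rose from low levels. The unigene for 9-cis-epoxycarotenoid dioxygenase 1 (NCED1, c63716_g5), of the enzyme family that cleaves carotenoids in the committed step to ABA, had FPKM values of 1.58 and 1.07 in control and 48.9 and 50.9 under drought (log2 fold change 4.46, SE 0.16, adjusted p = 0.000286). A further pair of unigenes of this route was chosen after the values were seen. One, viviparous-14 (c62039_g8), the maize gene from which this enzyme family was first described, went from 0.54 and 0.50 to 41.8 and 35.7 (4.70, SE 0.16, adjusted p = 0.000286). The other, beta-carotene hydroxylase (c53979_g1), which acts upstream in the making of xanthophylls, went from 0.56 and 0.89 to 18.9 and 17.8 (3.5, SE 0.23, adjusted p = 0.00139). All 3 were near the floor in both controls and at an FPKM of 17 or more in both drought libraries, and their calls held without any 1 library. In cold, NCED1 had 26.5 and 29.9, viviparous-14 had 8.32 and 7.36, and beta-carotene hydroxylase had 2.55 and 1.66, each lower than under drought (adjusted p = 0.0127, 0.000784 and 0.00116).

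The PP2Cs, which act as brakes on ABA signalling where they belong to clade A, rose in every one of the 7 unigenes the study had named. PP2C 37 (c58084_g2) had FPKM values of 0.19 and 0.55 in control and 49.7 and 52.2 under drought, a 138-fold rise of the mean (log2 fold change 5.26, SE 0.21, adjusted p = 0.000373). The PP2C 3-like unigenes c52482_g3 and c52482_g6, which share a component, went from 2.99 and 3.22 to 131 and 106 (4.86, adjusted p = 0.000286) and from 4.44 and 5.70 to 227 and 169 (5.03, adjusted p = 0.000289). The drought libraries were far above the controls in each. The other 4, c57868_g1, c60116_g4, c50507_g1 and c62830_g2, had control values between 9.0 and 23.6 and drought values between 95.5 and 214, with log2 fold changes of 3.38, 3.49, 3.03 and 2.08. All 7 were DEGs, and all 7 calls held without any 1 library. They differed in cold. PP2C 37 stayed at 0.55 and 0.43, whereas c60116_g4, at 2.49 and 3.89, was below its control values. In contrast, c62830_g2, at 172 and 203, was higher than under drought (adjusted p = 0.00574). For c52482_g3, at 100.1 and 94.2, the difference from drought did not pass (adjusted p = 0.169).

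The ABA group the study named has 14 unigenes, of which 13 rose, 10 of them as DEGs, none fell, and 10 calls held without any 1 library. Its median log2 fold change was 3.21. The study chose this group on these libraries, so its count is not independent evidence of a direction. Beside NCED1 and the PP2Cs, an EID1-like F-box protein (c57232_g2), of a class that marks proteins for degradation, rose from 0.08 and 0.32 to 39.9 and 36.1 (5.03, SE 0.24, adjusted p = 0.00062), and its component mates c57232_g1 and c57232_g3 rose by 2.00 and 2.51. The calls of these mates did not hold, with an adjusted p of up to 0.0762 for the first and 0.0806 for the second, both without control replicate 1. A NAC transcription factor (c52045_g1) went from 1.49 and 1.35 to 23.3 and 12.9 (2.93, adjusted p = 0.00775, up to 0.0951 without control replicate 1). The member that did not pass was the energy-sensing kinase SnRK1 (c57228_g1), with 3.43 and 3.08 in control and 1.79 and 2.40 under drought (adjusted p = 0.344). An ABI5-like bZIP factor (c57946_g1), chosen after its values were seen, went from 6.19 and 8.28 to 17.9 and 14.4 (1.06, SE 0.19, adjusted p = 0.0276), and this call was lost without each of the 4 libraries (adjusted p 0.0881 to 0.182).

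**Figure D2:**
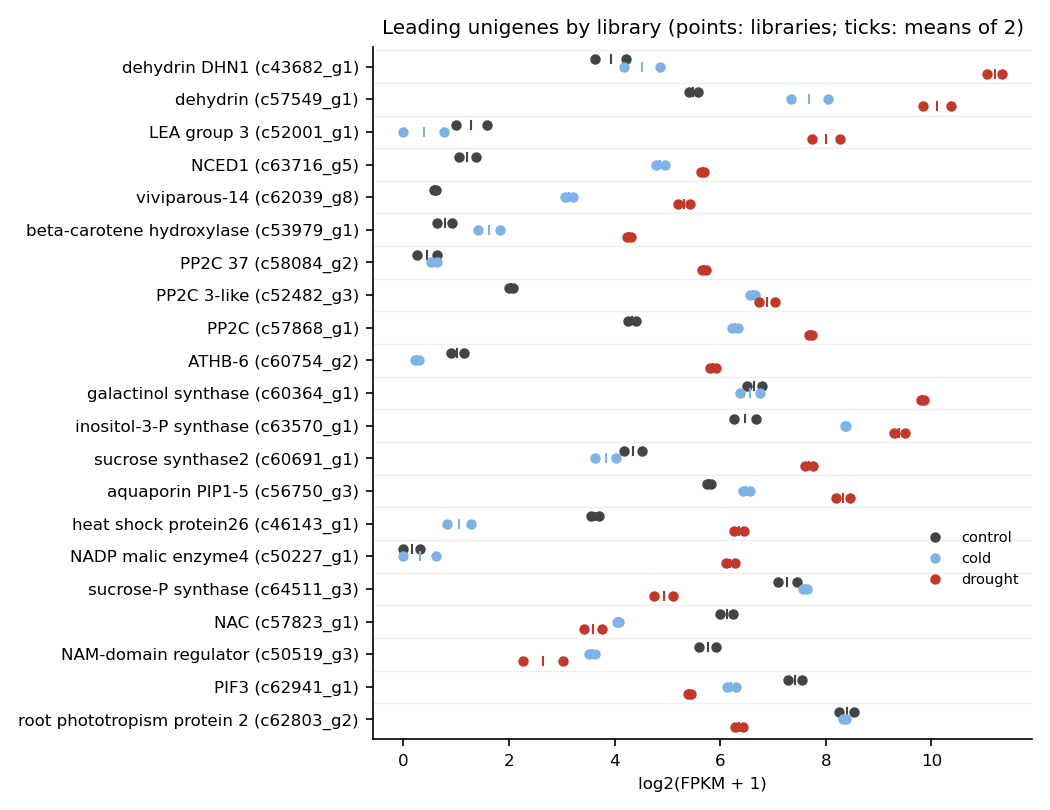
Levels of 21 unigenes in each library as log2(FPKM + 1), with points for the libraries of control (black), cold (blue) and drought (red) and ticks for the means of 2. The drought points lie to the right of both control points in the first 16 unigenes and to the left in the last 5. In cold, DHN1, PP2C 37 and galactinol synthase stayed near their control levels, while NCED1 and PP2C 3-like were above them.

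Enzymes of the raffinose family pathway were among the unigenes that rose, although no list of them was fixed. Galactinol synthase (c60364_g1; synonyms gols2 and gols3), which makes the galactosyl donor for raffinose and stachyose, had FPKM values of 110.2 and 89.6 in control and 925 and 891 under drought (log2 fold change 3.18, SE 0.17, adjusted p = 0.000685). In the cold libraries it was at 107 and 82.2. Stachyose synthase (c55229_g2), which adds a galactose to raffinose, rose from 54.3 and 55.8 to 519 and 363 (2.96, SE 0.18, adjusted p = 0.00107), and the drought libraries of both enzymes were clear of all controls. The enzymes that feed galactinol, chosen after their values were seen, rose as well: inositol-3-phosphate synthase (c63570_g1), which makes the precursor of myo-inositol, from 75.7 and 102 to 622 and 719 (2.91, adjusted p = 0.00083), and UDP-glucose-4-epimerase (c61255_g2), which makes UDP-galactose, from 72.2 and 53.4 to 273 and 278 (2.13, adjusted p = 0.00199). These calls held without any 1 library, except that of the epimerase, whose adjusted p was 0.0532 without drought replicate 1.

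Single enzymes that handle sucrose, starch and trehalose were among the DEGs too. Trehalose-6-phosphate phosphatase (c45624_g2), which makes trehalose and was named by the study, rose from 7.01 and 7.12 to 89.8 and 79.96 (3.41, SE 0.11, adjusted p = 0.000286). Of those chosen after their values were seen, sucrose synthase2 (c60691_g1), which cleaves sucrose, went from 17.1 and 21.9 to 214 and 194 (3.33, SE 0.18, adjusted p = 0.000769), and a beta-amylase (c62592_g5), of the enzymes that break down starch, from 20.1 and 19.3 to 286 and 232 (3.64, SE 0.14, adjusted p = 0.00032). Each of these was several-fold higher in both drought libraries, and each call held without any 1 library. A unigene matching a different maize gene, also listed as sucrose synthase 2 (c60955_g1), was much more abundant in control at 581 and 611. It was at 318 and 386 under drought (-0.77, adjusted p = 0.026), a call that was lost without each of the 4 libraries.

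In the opposite direction, sucrose-phosphate synthase (c64511_g3), which makes sucrose, fell from 173 and 136 to 33.5 and 25.9 (-2.34, SE 0.17, adjusted p = 0.00193), and the call held without any 1 library. Both cold libraries, at 198 and 188, were above the drought ones (adjusted p = 0.000545). In the list of enzymes for compatible solutes, with 5 members tested, c64511_g3 was the 1 member that fell. Another unigene matching the same sucrose-phosphate synthase protein (c42505_g1) did not pass. Betaine aldehyde dehydrogenase (c57362_g2), which makes glycine betaine, was the 1 that rose, from 68.2 and 64.4 to 102 and 107 (0.65, adjusted p = 0.0149). The latter call was lost without each of the 4 libraries (adjusted p 0.0705 to 0.088). In the list of starch and sugar transport genes, 24 of 30 were tested, 1 rose and 3 fell, with a median of -0.07. The shares over all tested unigenes were 5.9% risen and 3.02% fallen. The 3 that fell were plastid ADP-glucose pyrophosphorylase, the entry enzyme of starch synthesis (c57779_g3, -1.01, and c57779_g2, -0.74), and monosaccharide transporter1 (c53529_g6, -1.17). None of these 4 calls held without any 1 library.

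Aquaporins, the water channels of the plasma membrane (PIP) and the vacuole (TIP), rose in 7 of 38 tested members of a list of 43, and none fell, beside 5.9% risen and 3.02% fallen over all tested unigenes. The median of the list was 0.22. The strongest were PIP1-5, in the unigenes c35748_g1, from 59.8 and 59.0 to 399.5 and 418 (log2 fold change 2.76, SE 0.14, adjusted p = 0.000661), and c56750_g3, from 52.7 and 55.6 to 352 and 292 (2.55, SE 0.13, adjusted p = 0.000661). The tonoplast channel TIP4-1 (c56624_g1) went from 10.01 and 13.8 to 94.7 and 116 (3.06, SE 0.25, adjusted p = 0.00262). All 3 were DEGs with separate libraries, but the call of TIP4-1 was lost without control replicate 1 (adjusted p = 0.0519) and without either drought library (0.0572 and 0.0515). The most abundant that rose was PIP2-1 (c82773_g1), from 1209.5 and 1475 to 2265 and 2175 (0.73, adjusted p = 0.032). The most abundant member, TIP1-1 (c63952_g3), was at 1669 and 1577 in control and 1987 and 1791 under drought (adjusted p = 0.491). The summed FPKM of the list was 4433 and 4529 in control and 7228 and 6798 under drought. Without 1 library, 2 to 4 of the 7 calls remained, and only those of the PIP1-5 unigenes held in all 4 fits.

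Some heat shock genes rose. The class II small heat shock protein (c56552_g1), a chaperone of unfolding proteins, had FPKM values of 23.8 and 35.4 in control and 154 and 171 under drought (log2 fold change 2.44, SE 0.22, adjusted p = 0.00331). Heat shock protein26 (c46143_g1) went from 10.7 and 12.1 to 75.8 and 86.0 (2.73, SE 0.19, adjusted p = 0.00173), and heat-shock protein 101 (c58173_g1), which dissolves protein aggregates, from 34.8 and 45.6 to 164 and 166 (2.02, SE 0.15, adjusted p = 0.00183). In these genes the drought libraries were above control and the cold libraries below it: the class II protein was at 0.71 and 0.41 and heat shock protein26 at 0.77 and 1.43 in cold. An HSP82 chaperone unigene (c54089_g2) rose from 5.66 and 13.0 to 103 and 96.1 (3.38, SE 0.35, adjusted p = 0.00528). The factor HSF30 (c59856_g7), of the family that switches on heat shock genes, rose from 1.85 and 1.82 to 16.6 and 14.8 (2.56, adjusted p = 0.000684). Of the 10 heat shock unigenes that the study named, again on these libraries, 8 rose, 5 of them as DEGs, the median was 2.15, and 3 of the 8 calls held without any 1 library. The heat shock factors 4 (c46749_g1, adjusted p = 0.0733) and 7 (c54684_g2, adjusted p = 0.147) did not pass.

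A list of heat shock proteins and chaperones of the endoplasmic reticulum was also counted. It covers only the maize matches searched and does not hold c58173_g1, the HSP82 unigene c54089_g2 or HSF30. Of 14 tested members of 28, 3 rose and none fell, beside 5.9% risen and 3.02% fallen over all tested unigenes. The median of the list was -0.02. Those that rose were the class II protein, heat shock protein26 and a second unigene of heat-shock protein 101 (c60810_g1, 1.05, adjusted p = 0.0122). The 11 others were protein disulfide isomerases and calreticulins, folding factors of the endoplasmic reticulum, with log2 fold changes between -0.47 and 0.18. Of the heat shock calls, those of heat shock protein26, the c58173_g1 unigene and HSF30 held without any 1 library. That of the class II protein was lost without either drought library (adjusted p = 0.0661 and 0.0578), as was that of the HSP82 unigene c54089_g2 (0.0922 and 0.0757). That of c60810_g1 was lost without either control library or drought replicate 1 (0.113, 0.1 and 0.0864). The temperature of the PEG solution was not given, and its part in these values was not tested.

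Among the regulators, the homolog of ATHB-6 (c60754_g2), in Arabidopsis a homeodomain-leucine zipper factor tied to ABA responses, was nearly silent in control at 1.21 and 0.86 and reached 55.3 and 59.3 under drought (log2 fold change 4.85, SE 0.19, adjusted p = 0.000347). In cold it was at 0.22 and 0.17. The CBL-interacting protein kinase 11 (c51372_g1), a target of calcium sensors, rose from 7.73 and 12.1 to 142 and 101 (3.5, SE 0.24, adjusted p = 0.00157), and the related unigene c49176_g1 from 2.66 and 3.0 to 39.2 and 30.8 (3.22, adjusted p = 0.00066). All 3 calls held without any 1 library. A WRKY factor (c56800_g2) rose from 15.7 and 9.06 to 112 and 109 (3.11, adjusted p = 0.00213), a call lost without drought replicate 1 (adjusted p = 0.0598). A bZIP factor (c59299_g1) rose from 1.90 and 1.62 to 41.2 and 20.95 (3.47, adjusted p = 0.00323), a call lost without either control library (0.0615 and 0.059).

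Factors of the DREB family bind the drought-responsive element in promoters. A pair of DREB 1D unigenes that the study placed under water deprivation rose, with a wide spread between libraries. The first (c49699_g2) had 1.37 and 0.40 in control and 19.4 and 11.2 under drought (3.11, SE 0.35, adjusted p = 0.00667), and the second (c55715_g7) had 4.16 and 0.45 against 57.1 and 22.5 (3.76, SE 0.67, adjusted p = 0.0258). Neither call held without any 1 library, with adjusted p of up to 0.0826 and 0.194, both without drought replicate 1. DRE-binding protein 4 (c51930_g3), chosen after its values were seen, went from 0.23 and 0.60 to 25.8 and 26.0 (4.26, SE 0.21, adjusted p = 0.000661), and this call held. The ICE1 homologs c60792_g1 and c13919_g1, in Arabidopsis upstream activators of cold-response factors, were at 7.91 and 8.73 against 9.22 and 8.44, and at 3.90 and 8.94 against 7.04 and 6.68, and neither passed (adjusted p = 0.806 and 0.818).

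In the group of 18 transcription and signalling unigenes that the study named on these libraries, 13 rose, 6 of them as DEGs, and 2 fell, with a median of 2.30 and 4 calls that held without any 1 library. Those that fell were a NAC 21/22-like factor (c57823_g1) and the EL5-like ubiquitin ligase (c57309_g1). The NAC factor fell from 74.9 and 62.9 to 9.72 and 12.6 (-2.53, SE 0.16, adjusted p = 0.00123), and its call held. The EL5-like gene fell from 10.5 and 10.98 to 2.58 and 2.04 (-1.83, SE 0.21, adjusted p = 0.00708), and its call was lost without each of the 4 libraries (adjusted p 0.0609 to 0.0803). In both genes the cold libraries were also below control, at 15.5 and 16.0 for the NAC factor and 0.68 and 0.99 for the EL5-like gene.

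Several of the strongest changes lay in unigenes with no name in the part of the study's annotation used here. That part named 105 of the 288 DEGs that were higher, so a missing name is no trait of these unigenes. A named one, NADP malic enzyme4 (c50227_g1), which turns malate into pyruvate, had FPKM values of 0.24 and 0 in control and 68.0 and 76.6 under drought (log2 fold change 6.04, SE 0.27, adjusted p = 0.000541). Of the 10 largest increases, 6 had no annotation here, such as c41217_g1, from 0.72 and 2.61 to 297 and 362 (7.05, SE 0.36, adjusted p = 0.000684), and c44217_g1, from 1.58 and 0.35 to 269 and 133 (6.67, SE 0.45, adjusted p = 0.00152). The others were c34485_g1 (6.18), c50146_g3 (6.06), c50932_g2 (5.85) and c62592_g6 (5.77), which shares a component with the beta-amylase c62592_g5. In cold all 7 stayed below an FPKM of 1.5 in both libraries, and all 7 calls held without any 1 library. By gain in FPKM, 2 more unigenes with no name here ranked with the dehydrins and galactinol synthase. They were c61064_g8, from 137 and 128 to 1009 and 883 (2.83, adjusted p = 0.00132), and c58481_g4, from 145 and 130.3 to 951 and 897 (2.74, adjusted p = 0.00176). The call of c58481_g4 was lost without drought replicate 1 (adjusted p = 0.0538).

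The DEGs that fell were few, and light-related regulators stood among those with the largest loss in FPKM. Root phototropism protein 2 (c62803_g2), in Arabidopsis a partner of the blue-light receptor phototropin, fell from 372 and 304 to 76.95 and 85.7 (-2.04, SE 0.13, adjusted p = 0.00132). PIF3 (c62941_g1), in Arabidopsis a phytochrome-interacting factor, fell from 187 and 155 to 40.8 and 42.7 (-2.0, SE 0.13, adjusted p = 0.00132). A regulator with a no apical meristem domain (c50519_g3), of the NAC family, fell from 47.7 and 59.3 to 3.79 and 7.09 (-3.12, SE 0.27, adjusted p = 0.00289). Both drought libraries were below both controls in all of them. The calls of the first 2 held without any 1 library, and that of the third was lost without either control library (adjusted p = 0.052 and 0.0562). With no annotation here, c46884_g1 and c54536_g1 went from 223 and 152 to 35.6 and 35.5 (-2.34) and from 156 and 136 to 23.7 and 26.1 (-2.50). The call of c46884_g1 was lost without drought replicate 1 (adjusted p = 0.0598).

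A few transcripts were listed at 0 after PEG. Thioredoxin H4 (c29390_g1), a small redox protein, was at 34.6 and 29.8 in control and listed at 0 in both drought libraries and both cold libraries (fitted difference -5.05, adjusted p = 0.000504). The unigenes c63024_g4, c96998_g1 and c20631_g1 had control values between 6.42 and 9.68 and were listed at 0 in both drought libraries. The first 2 of these 3 were listed at 0 in cold as well, and c20631_g1 was at 1.69 and 1.73 there. In these unigenes no fold is given, and the 4 calls held without any 1 library.

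Part of the transcripts of the photosynthetic machinery fell. In C4 plants such as maize and teosinte, carbon dioxide is first fixed by phosphoenolpyruvate carboxylase (PEPC) in mesophyll cells and released by NADP-malic enzyme next to Rubisco in bundle sheath cells. Of the 26 nuclear leaf and C4 photosynthesis unigenes, 18 were tested, 9 fell, 3 rose and 6 did not pass, with a median of -0.68 against 0.01 for all tested unigenes, of which 3.02% fell. The antenna protein CP26 (c49564_g1), which passes light energy to photosystem II, had FPKM values of 2538 and 2161 in control and 1252 and 1325 under drought (-0.86, SE 0.16, adjusted p = 0.0285). The chloroplast NADP-malic enzyme (c57059_g2) went from 2548 and 2583 to 1365 and 1511 (-0.84, adjusted p = 0.0248), and Rubisco activase (c62692_g3), which keeps Rubisco in its active form, from 654 and 578 to 319 and 347 (-0.89, adjusted p = 0.0172). The 9 fell by between 0.61 and 0.89 on the log2 scale, short of the DEG threshold. The Rubisco small chain (c59441_g6), at 3526 and 3287 against 2215 and 2289, did not pass (-0.60, adjusted p = 0.0515).

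The 3 that rose were unigenes matching PEPC kinase 1 and a PEPC unigene other than the abundant PEPC 1. PEPC kinase 1 (c54841_g5), which phosphorylates PEPC and makes it less sensitive to inhibition by malate, rose from 4.99 and 6.20 to 33.6 and 34.5 (2.42, SE 0.22, adjusted p = 0.00347), and its component mate c54841_g6 rose by 2.13. A PEPC unigene of modest level (c56085_g1) went from 57.0 and 57.4 to 82.4 and 93.0 (0.61, adjusted p = 0.0261), while the abundant PEPC 1 (c59465_g1), at 1795 and 1524 against 1056 and 1105, did not pass (-0.61, adjusted p = 0.141). None of the list's 9 calls downward and 3 upward held without any 1 library. The call of PEPC kinase 1 (c54841_g5) remained without control replicate 2 only, and its adjusted p was between 0.0483 and 0.0692 over the 4 fits. With no trend of the variance with the level, 2 of the 9 remained, and with no filter on low FPKM, 4.

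**Figure D3:**
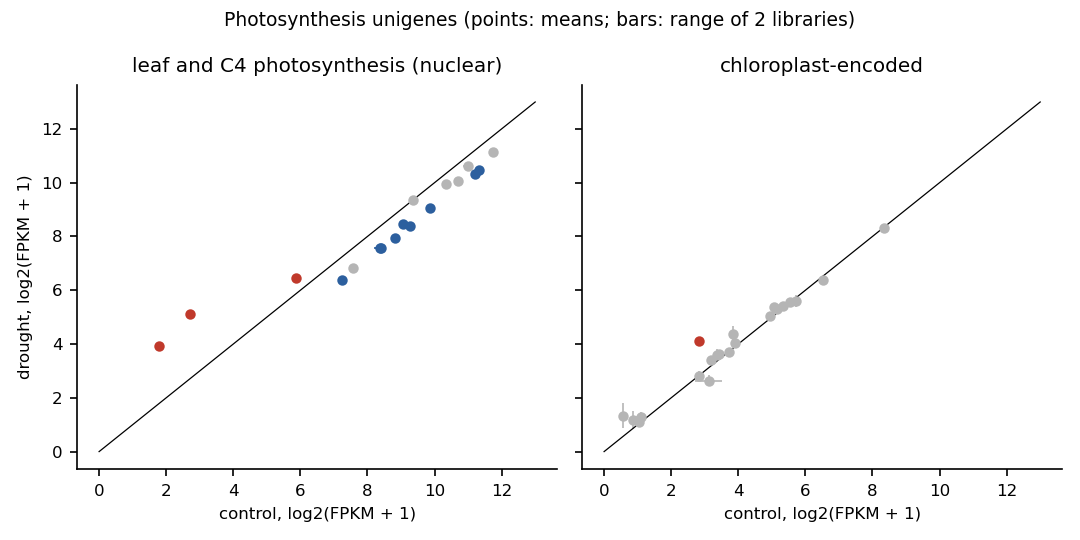
Drought (y axis) against control (x axis) group means of log2(FPKM + 1) for the tested nuclear leaf and C4 photosynthesis unigenes (left, 18) and the tested chloroplast-encoded unigenes (right, 21), with bars for the range of 2 libraries, mostly shorter than the points, and a line of equality. Red points rose, blue points fell and grey points did not pass. On the left, 9 points lie below the line and are called lower, and on the right 1 of 21 is called.

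Values of chloroplast-encoded and root-type transcripts are given beside those of the leaf list, and whether they follow the share of each organ in the pool was not tested. Over all tested unigenes, 5.9% rose and 3.02% fell. Of 21 tested chloroplast-encoded unigenes of 37, 1 rose and none fell, with a median of 0.15, and their summed FPKM was 730.2 and 763 in control and 798 and 727 under drought. Of 21 tested root-type unigenes of 33, 1 rose and none fell, with a median of -0.12, and their sum was 1147 and 1272 against 975 and 1045. The sum of the 26 nuclear leaf and C4 unigenes was 17924 and 17292 in control and 11401 and 11510 under drought, a ratio of 0.651 between the groups, while that of the root-type unigenes was 0.835. The part of the share of leaf RNA in the lower photosynthesis transcripts was not tested.

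**Figure D4:**
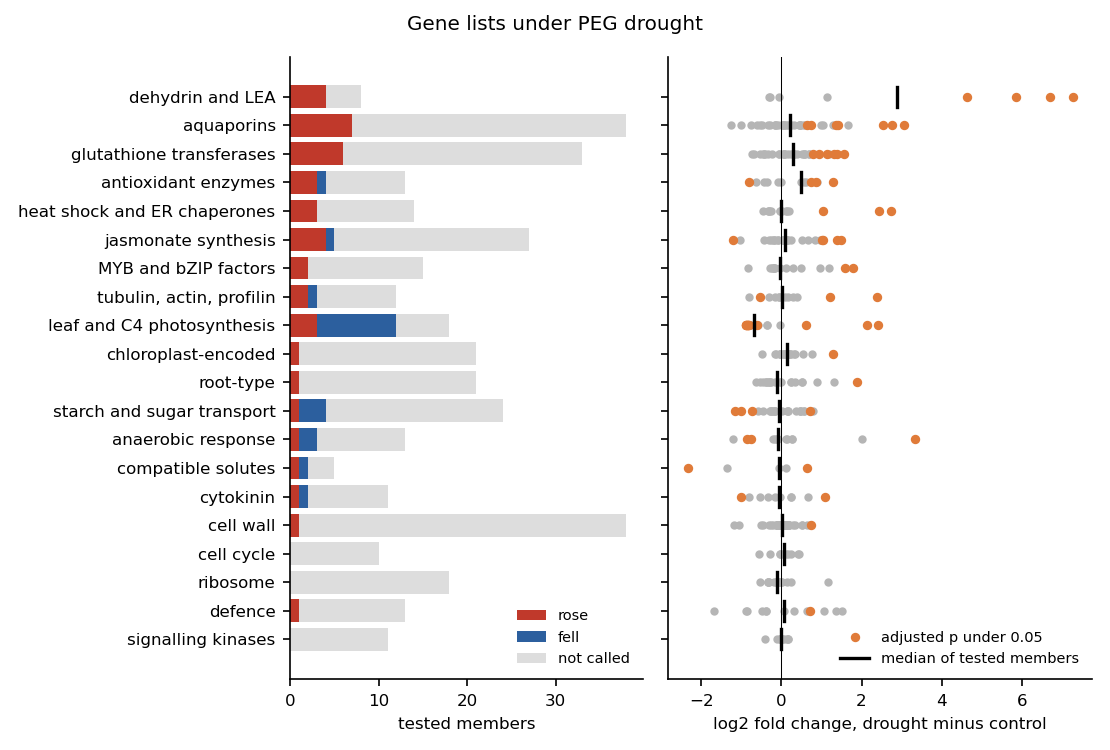
For 20 gene lists, the bars on the left count the tested members that rose (red), fell (blue) or did not pass (grey), and the points on the right give each tested member's log2 fold change (drought minus control), in orange where the adjusted p was under 0.05, with a bar at the list median. The dehydrin and LEA list has the highest median, 2.87, with 4 of 8 called, and the leaf and C4 list the lowest, -0.68, with 9 of 18 called lower.

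The counts of the other lists are read against the 5.9% of all tested unigenes that rose and the 3.02% that fell. Of 33 tested glutathione transferases, enzymes that couple glutathione to reactive compounds, 6 rose and none fell, with a median of 0.28, and glutathione transferase20 (c58678_g1) led with 54.9 and 50.3 in control against 178 and 140.1 under drought (log2 fold change 1.57, SE 0.15, adjusted p = 0.00433). Of 13 tested antioxidant unigenes, 3 rose and 1 fell, with a median of 0.50. Catalase isozyme 1 (c55776_g1), which breaks down hydrogen peroxide, rose from 131 and 151 to 246 and 221 (0.73, adjusted p = 0.0221), and catalase isozyme 2 (c64154_g1) fell from 183 and 184 to 98.7 and 109 (-0.82, adjusted p = 0.0151). The jasmonate list holds lipoxygenases, an allene oxide synthase and 12-oxo-phytodienoic acid reductases, and the role of each in jasmonate synthesis was not tested. Among its 27 tested unigenes, 4 rose and 1 fell, with a median of 0.10. 12-oxo-phytodienoic acid reductase2 (c62969_g2) went up from 48.9 and 44.5 to 146 and 119 (1.48, adjusted p = 0.0203) and reductase6 (c50027_g1) down from 158 and 102 to 50.4 and 58.6 (-1.21, adjusted p = 0.0257). Another unigene matching reductase6 (c62969_g3) was not among those called.

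None of the calls in these 3 lists held without any 1 library. Over the 4 fits the adjusted p was 0.0241 to 0.0634 for glutathione transferase20, with the call lost without either control library. It was 0.0846 to 0.144 for catalase isozyme 1, 0.0802 to 0.118 for catalase isozyme 2, 0.115 to 0.171 for reductase2 and 0.0385 to 0.19 for reductase6, whose call remained without control replicate 2 only. Ribosomal and translation genes (18 tested), cell cycle genes (10) and signalling kinases (11) had no member called, with medians of -0.12, 0.07 and -0.01. In the lists of cell wall, defence, cytokinin, MYB and bZIP, tubulin and actin, and anaerobic response genes, between 1 and 3 members were called in each.

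The share of unigenes called grew with the level, and the SD between libraries shrank. Whether this share follows power or more frequent changes in abundant unigenes was not tested. From an FPKM of 1 to 2 the median SD between libraries on the log2(FPKM + 1) scale was 0.245 in control and 0.269 under drought, and 2.49% of 9424 unigenes were called. At an FPKM of 100 and more these SDs were 0.092 and 0.109, and 24.7% of 1472 unigenes were called, 199 higher and 165 lower. The shares set beside the gene lists are over all levels. For a list of abundant genes they are therefore below the shares at its own level. No DEG lay at a mean FPKM below 2, where the log2(FPKM + 1) scale itself leaves little room for a log2 fold change of 2. Between 10 and 100 lay 179 of the 288 that were higher and 13 of the 23 that were lower.

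**Figure D5:**
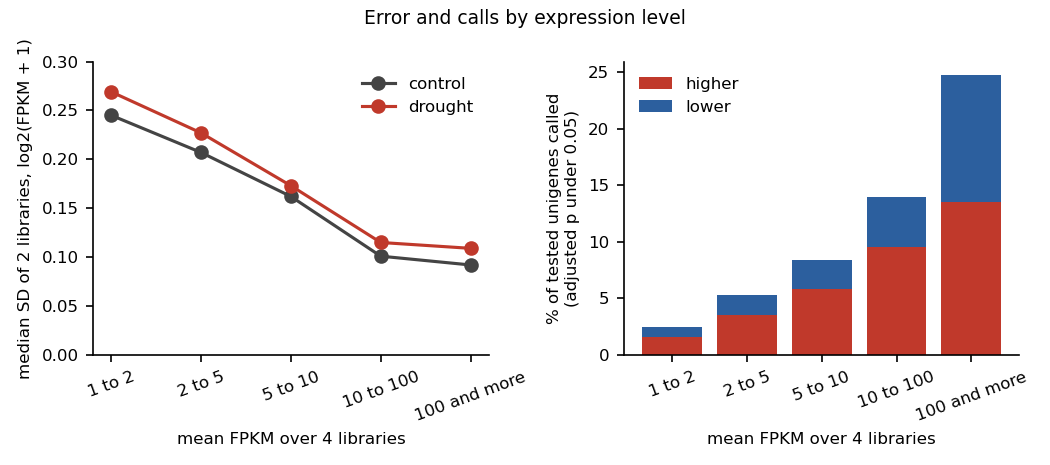
Median SD of log2(FPKM + 1) between the 2 libraries of control (black) and drought (red), left, and the percent of tested unigenes called at an adjusted p under 0.05, right, in 5 classes of mean FPKM over the 4 libraries. The SD falls from 0.245 and 0.269 at the lowest level to 0.092 and 0.109 at the highest, and the percent called rises from 2.49 to 24.7.

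Compared with the cold libraries, which share no library with the drought group, most of the DEGs that were higher under drought were also above cold. Of the 288, 232 were higher under drought than in cold at an adjusted p under 0.05, 14 were lower and 42 did not pass. Of the 23 that were lower, 16 were also below cold, 2 were above it and 5 did not pass. Over all tested unigenes 13449 were called in this comparison (34.9%), of which 9303 (24.1%) were higher and 4146 (10.8%) lower under drought than in cold, and with median-of-ratios scaling these became 6246 and 5732, while the split of the 288 became 223, 17 and 48. Since the drought libraries that chose these DEGs also enter this comparison, the counts are a description. The cold treatment lasted 12 h and the PEG treatment 3 h, so the agents and the durations cannot be told apart.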

How the data were processed

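RNA-seq of 6 teosinte seedling libraries was used, 2 each for control, PEG drought and cold. The deposited table holds FPKM per unigene, which the authors computed with RSEM after aligning reads with Bowtie 1.1.1 to their own de novo assembly. The study lists the reads of each library, which were not used here. Read counts per unigene were not analysed, and a genome build is not given in the sources used here. Values were taken as log2(FPKM + 1) and fitted over all 6 libraries with limma 3.58.1 in R 4.3.3, with a mean-variance trend and 3 residual degrees of freedom. Tests covered unigenes whose FPKM averaged 1 or more over control and drought. The study calls the replicates biological repeats. They were pools of seedlings that nothing describes as grown separately, so p-values measure the spread between these samples, which may in part be technical. Names came from the part of the study's annotation used here (5482 unigenes, with no minimum identity set) and RefSeq synonyms for Zm-B73-REFERENCE-NAM-5.0. List members were maize matches of at least 65% identity among the first 1999 in order of protein accession, so a list need not hold a whole family. Near-identical unigenes may share reads. By rule, named unigenes were the 10 largest log2 changes and 5 largest FPKM changes of DEGs in each direction, up to 4 risers and 3 fallers of each list, and those the study discussed. Others were chosen after their values were seen. Members and lists were chosen with earlier results of these data known. Scripts were tested on simulated data. Alternatives were the pseudocount, filters, scalings, fits and thresholds, and each library left out. Python 3.11.15 with pandas 2.3.3 was used.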

Additional observations from a re-analysis of the deposited data

How the results depend on the processing

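With 2 libraries a group, the counts of DEGs depended on the fit. All 311 DEGs kept their direction under every alternative run. Only a change of scaling could have altered a direction, since the control and drought libraries of these DEGs did not overlap. DEGs higher and lower numbered 288 and 23 with the settings of the report, 140 and 11 with no filter on low FPKM, 136 and 8 with the 4 control and drought libraries fitted alone, 139 and 13 with no mean-variance trend, 436 and 71 with a log2 fold change threshold of 1, and 547 and 105 with an adjusted p threshold of 0.05. Unigenes at an adjusted p under 0.05 were 1025 higher and 319 lower with no filter, when 146079 were tested, and 729 were lower with no trend. Unigenes higher under drought than in cold were 5562 with no filter and 5424 with quantile normalization. With 1 library left out, there were 0 DEGs in either direction, calls higher 454 to 981 and lower 110 to 214, and calls against cold 4562 to 7446 higher and 2046 to 3278 lower.

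Replicate numbers did not pair the samples: deviations of same-numbered libraries from their group means correlated at -0.00733 for control and drought, -0.037 for control and cold and 0.0315 for cold and drought. With the replicate number as a block, 171 DEGs were higher and 13 lower, and 14 of the 158 named unigenes with a call lost it.

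Among the 168 named unigenes, in which changes of sign were checked, 4 had one, none of them called: c13919_g1 (-0.34 to 0.68 over the fits without 1 library), c52663_g5 (-0.0036 to 0.043), c58118_g1 (-2.5 to 0.045) and c62175_g1 (-0.094 to 0.22, and -0.025 with quantile normalization). The causes were not tested.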

Other observations

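Several unigenes outside the lists were followed further, all chosen after their values were seen. S-adenosylmethionine decarboxylase, which makes the aminopropyl donor for polyamines, rose in c52972_g1 from 17.4 and 15.8 in control to 131 and 108 under drought (log2 fold change 2.77, limma adjusted p = 0.000739). In c46925_g1 it rose from 30.5 and 23.3 to 202 and 159 (2.70, adjusted p = 0.00323, and up to 0.0674 with 1 library left out, without drought replicate 1). A polyamine oxidase, which breaks polyamines down, fell in c54533_g1 from 507 and 338 to 164 and 186 (-1.24, adjusted p = 0.0194), a call that remained without control replicate 2 only (adjusted p 0.0422 to 0.172). Both enzymes were higher in cold than under drought, at 242 and 198 for c52972_g1 and 770.3 and 807 for c54533_g1 (adjusted p = 0.00856 and 0.00143).

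RELA/SPOT homologs, which make or break down the alarm nucleotide ppGpp, rose in 3 unigenes: c46810_g1 from 18.6 and 19.5 to 84.0 and 66.0 (1.91, adjusted p = 0.00207), c58889_g1 by 1.71 and c60116_g1 by 1.56. The last of these shares a component with the PP2C unigene c60116_g4 and may share reads with it. The call of the first held with each library left out. The adjusted p of the others reached 0.0738 (without drought replicate 1) and 0.174 (without control replicate 1). In cold c46810_g1 was at 16.5 and 17.7.

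A calmodulin-related touch-induced protein (c61291_g2) rose from 8.07 and 4.39 to 91.7 and 79.6 (3.63, adjusted p = 0.00158) and was at 73.9 and 82.8 in cold (adjusted p = 0.726 against drought), its call against control being lost without drought replicate 1 (0.0518). In 1 unigene of unknown function (c62460_g1), drought and cold were on opposite sides of control: 20.4 and 13.6 in control, 1.62 and 1.95 under drought (-2.66, adjusted p = 0.00357, lost without either drought library at 0.0708 and 0.0535) and 181 and 249.9 in cold (adjusted p = 0.000197 against drought).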
